A study of Mus musculus with 4 samples.

Results

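The genes described here are 9 transcription regulators that T cells switch on after a signal through the T cell receptor (TCR): Egr1, Egr2, Egr3, the Egr cofactor Nab2, Nr4a1, Nr4a2, Nr4a3, Nfatc1 and Irf4. They were listed by gene symbol, with no threshold on measured values but with earlier results of these data known. The study had already reported Egr1, Egr2 and Nr4a1 as differing between the genotypes compared below. All 9 were found once each among the 31053 genes of the count matrices. Zbtb16, which encodes PLZF, the zinc finger factor that directs innate-like T cells to their effector fates, was followed beside them as a reference. The samples were thymic invariant natural killer T (iNKT) cells, T cells with a nearly fixed receptor for lipids presented by CD1d, isolated with a CD1d tetramer loaded with PBS57. The study compared 2 wildtype C57BL/6 mice with 2 Hivep3-/- mice, which carry the C57BL/6 background by backcrossing and lack Hivep3, which encodes a zinc finger protein that acts both on transcription and in signalling. All 4 mice were untreated and 8 to 9 weeks old, and each gave 1 library of 5' single-cell RNA-seq (10x Genomics). CD44low and CD44high cells were put together in equal parts in the sort, so the shares of cells below depend in part on the sort.

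The Egr genes are classic immediate-early genes: TCR ligation activates the ERK kinases, which act through serum response factor and its partners at Egr promoters within minutes. Calcium entry activates the phosphatase calcineurin, which sends NFAT proteins such as NFATc1 to the nucleus, where they bind with AP-1, Egr or IRF4 partners. The orphan nuclear receptors of the Nr4a family are induced by the same signal and are widely used as reporters of its strength, and Irf4 is induced in a graded way with TCR affinity. In iNKT development, strong signals given by thymocytes that present lipid on CD1d induce Egr2, which is needed for the expression of PLZF. Nab2 is both a target and a corepressor of the Egr proteins.

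Promoter stretches are shown for the Nr4a genes, Egr2 and Irf4. All but Irf4 had their highest mean, among the named classes below and over the 4 libraries, in the class with the earliest iNKT cells. Nab2 shared that order, but its stretch is not shown. RefSeq windows (GRCm38.p6) were matched by symbol for 6 of the 9 members, not for Egr1, Egr3 or Nfatc1. The stretches end just before the first base of the gene or, for Nr4a1 and Egr2, of a start inside the annotated gene, and are written 5' to 3' on the strand of the gene. Capitals mark TGACG on either strand, the core of the site of cyclic AMP response element binding proteins, and the CArG box, the site of serum response factor. The Nr4a1 stretch lies at chr15:101266596-101266845 (plus strand), that of Nr4a2 at chr2:57124004-57124253 (minus strand), that of Nr4a3 at chr4:48045055-48045152 (plus strand), that of Egr2 at chr10:67537619-67537868 (plus strand) and that of Irf4 at chr13:30748983-30749225 (plus strand).
Nr4a1: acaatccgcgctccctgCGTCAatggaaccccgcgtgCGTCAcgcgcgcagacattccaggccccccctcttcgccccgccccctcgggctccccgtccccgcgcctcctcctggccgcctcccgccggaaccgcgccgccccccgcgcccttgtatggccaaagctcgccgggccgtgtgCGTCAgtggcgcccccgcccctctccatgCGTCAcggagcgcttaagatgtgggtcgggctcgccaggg
Nr4a2: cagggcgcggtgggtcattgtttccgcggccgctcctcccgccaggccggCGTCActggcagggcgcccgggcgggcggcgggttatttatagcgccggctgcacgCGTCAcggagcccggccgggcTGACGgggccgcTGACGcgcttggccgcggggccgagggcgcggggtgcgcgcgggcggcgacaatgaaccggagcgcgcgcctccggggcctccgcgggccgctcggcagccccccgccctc
Nr4a3: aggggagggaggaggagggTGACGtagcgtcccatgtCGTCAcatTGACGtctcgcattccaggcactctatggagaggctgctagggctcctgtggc
Egr2: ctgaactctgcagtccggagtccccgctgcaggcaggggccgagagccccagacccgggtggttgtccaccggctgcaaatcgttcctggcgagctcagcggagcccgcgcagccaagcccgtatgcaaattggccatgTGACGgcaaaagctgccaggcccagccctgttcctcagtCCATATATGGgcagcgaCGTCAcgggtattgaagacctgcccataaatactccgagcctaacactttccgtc
Irf4: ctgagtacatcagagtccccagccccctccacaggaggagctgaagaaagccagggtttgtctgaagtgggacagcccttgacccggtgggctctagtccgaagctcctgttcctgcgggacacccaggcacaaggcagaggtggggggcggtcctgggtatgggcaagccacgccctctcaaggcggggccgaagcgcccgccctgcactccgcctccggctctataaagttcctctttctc
Each Nr4a window of 300 bases held 4 matches to TGACG (for Nr4a3, 3 of them in the stretch shown), whereas 20.812% of the 32851 RefSeq windows of that length held any and 76 windows (0.231%) held at least 4. RefSeq gave 5 windows for Egr2. The one shown, the first of 3 that overlap, held 2 matches to TGACG and 1 CArG box, a motif present in 1.629% of windows. The window at the annotated start of the gene (67535249 to 67535548) held no match to any motif searched, and the one at 67537316 to 67537615 held no TGACG and 1 CArG box. The windows of Nab2 and Irf4 held neither. GGAAA, the core of the NFAT site, was in 61.341% of windows, among them those of Nr4a2 and Irf4 and 4 of the 5 of Egr2. A match describes the sequence only and is no evidence of binding.

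In the annotation of the build used for the matrices (GENCODE vM21, GRCm38), Egr1 (ENSMUSG00000038418) spans 34859823 to 34864984 on chromosome 18 and Nfatc1 (ENSMUSG00000033016) spans 80606205 to 80713071 on the same chromosome. Egr3 (ENSMUSG00000033730) lies on chromosome 14 at 70077203 to 70082614. Nab2 (ENSMUSG00000025402), at 127660918 to 127668568 on chromosome 10, shares exonic bases with Stat6, Nemp1 and Gm16229 on the opposite strand; whether the counting used strand is not stated in the labels or methods, so its counts could hold reads of these neighbours. No other member shared exonic bases with another gene.

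After filtering, 19647 cells remained, between 3651 and 7231 per library with 25518692 to 45022744 unique molecular identifiers (UMIs) each. Clusters were named from marker genes as stage 0-like (the class with the earliest iNKT cells), cycling-like, iNKT2-like, iNKT17-like and iNKT1-like. The 3 clusters led by Klra3, Tnni1 and Malt1 stayed unnamed. Hivep3 itself was higher in the libraries labelled Hivep3-/-, at 101 and 68.0 UMIs per 1000000 UMIs of the library (CPM), than in those labelled C57BL/6, at 38.5 and 36.4 CPM. The labels and methods do not state which part of the gene was deleted, and UMIs taken at the 5' end do not tell which exons a transcript keeps, so this check neither bears out nor contradicts the labels. One library stood apart in sex-linked transcripts: C57BL/6 replicate 1 held 14609 Xist UMIs and none of the Y-linked genes, whereas the other 3 held 3568 to 4879 Y-linked UMIs, although the C57BL/6 mice of the single-cell experiment are described as female; the methods state for all experiments that both sexes were used. Values without each library are therefore given where a call rests on it. Between 18 and 43 cell barcodes were shared by any pair of libraries.

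Stage 0-like cells numbered 360 in C57BL/6 replicate 1, 123 in replicate 2, 377 in Hivep3-/- replicate 1 and 413 in replicate 2, an order kept in all lists of 4 values below, with class totals of 814753 to 2532670 UMIs. All 12 stage 0 markers, among them Cd24a, Itm2a, Lef1 and Myb, were detected, and their summed level was 6424 to 7678 CPM against 316 to 1640 CPM in the other named classes. At a finer resolution, described below, a cluster with low Cd24a held 1298965, 695542, 1934153 and 2014714 UMIs. One with high Cd24a held 395172, 119211, 569436 and 552532 UMIs. Most UMIs summed for this class thus came from cells with low Cd24a. Markers of double positive thymocytes, the precursors that could enter the gate, summed to 120, 108, 102 and 161 CPM in the 4 libraries, markers of B cells to 13.6 to 29.6 CPM and markers of myeloid cells to 159 to 174 CPM. Their part in the levels below was not tested. In sums of this kind, fewer transcribing cells and less RNA per cell cannot be told apart.

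Among the 5 named classes, Egr1 was highest in stage 0-like cells in every library. It was at 279 and 205 CPM in the C57BL/6 libraries and at 602 and 234 CPM in the Hivep3-/- libraries. In the 16 sums of the other 4 named classes, Egr1 ranged from 28.0 to 144 CPM, so stage 0-like cells did not overlap with them. Egr2, the member tied most closely to PLZF, was at 170, 140, 433 and 120 CPM in stage 0-like cells in the same order of libraries and at 2.69 to 62.5 CPM in the other named classes. The highest value in those was in iNKT2-like cells of Hivep3-/- replicate 1, the library with the highest Egr2 level in all 5 classes. In the unnamed cluster led by Tnni1, Egr2 was at 20.5 to 87.5 CPM, above its range in the other named classes only in Hivep3-/- replicate 1. These are levels across clusters of the same cells, given as a description with no test.

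Egr3 behaved differently from its relatives. In stage 0-like cells it was at 3.02 and 4.91 CPM in C57BL/6 (5 and 4 UMIs) and at 24.5 and 19.7 CPM in Hivep3-/- (61 and 50 UMIs). In the C57BL/6 libraries the named class with the highest mean was iNKT17-like, at 13.7 ± 5.24 CPM (SD, n = 2), above the 3.97 ± 1.33 CPM of stage 0-like cells. In the Hivep3-/- libraries the order turned, with 22.1 ± 3.35 CPM in stage 0-like cells and 10.4 ± 4.62 CPM in iNKT17-like cells. Nab2 was at 174, 158, 334 and 161 CPM in stage 0-like cells and at 32.5 to 157 CPM in the other named classes, so that its lowest stage 0-like value lay just above the highest value in those.

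**Figure D1:**
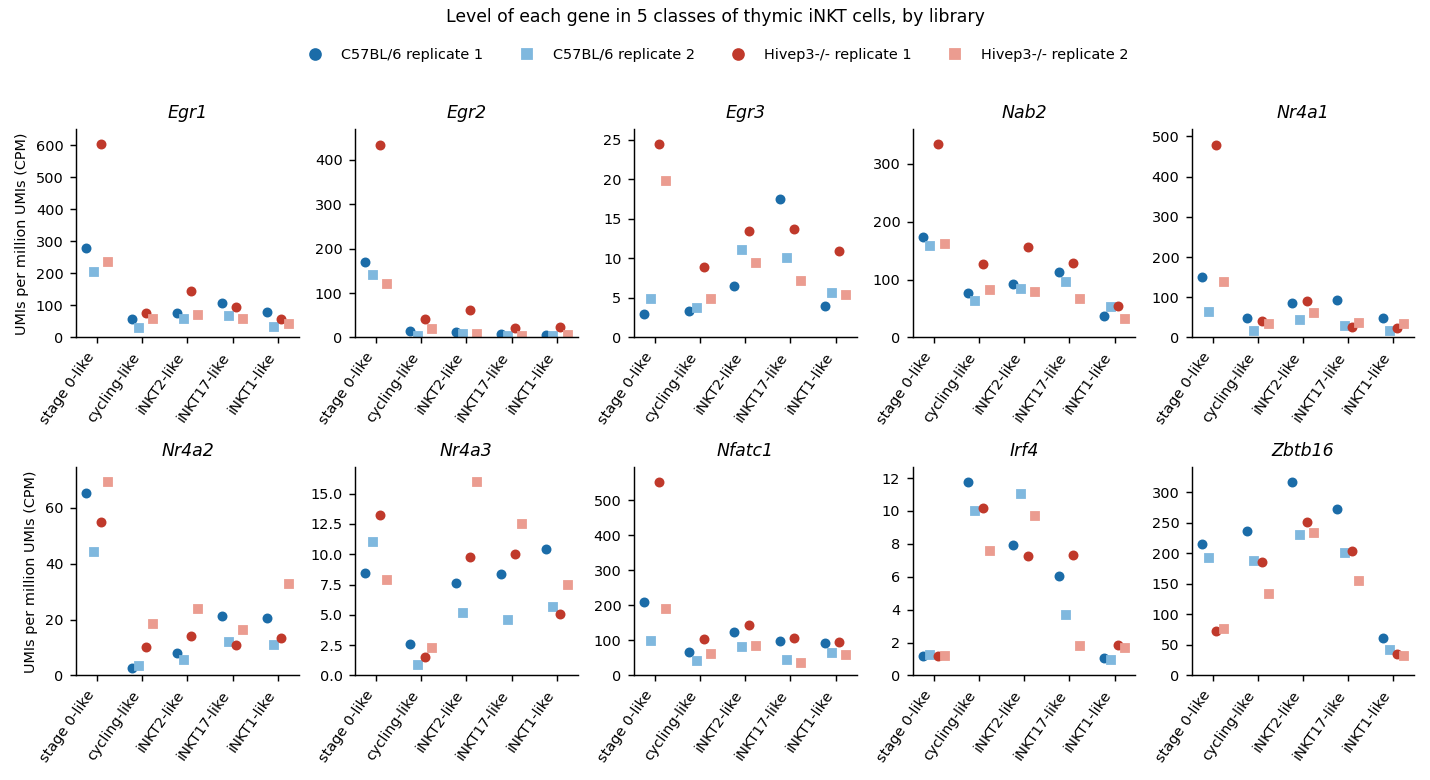
Levels of the 9 members and of Zbtb16 (CPM, linear axes from 0 that differ between genes) in the 5 named classes, with 1 point per library, blue for C57BL/6 and red for Hivep3-/-; the 3 unnamed clusters are not drawn. Egr1, Egr2, Nab2, Nr4a1, Nr4a2 and Nfatc1 lie higher in stage 0-like cells than in the other 4 classes of the same library. Irf4 lies highest in cycling-like or iNKT2-like cells and Zbtb16 in iNKT2-like cells.

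The Nr4a genes, which encode ligand-independent nuclear receptors, did not share 1 pattern. Nr4a1 (Nur77) was at 150 and 63.8 CPM in C57BL/6 stage 0-like cells and at 480 and 139 CPM in those of Hivep3-/-, and at 15.2 to 93.3 CPM in the other named classes. The C57BL/6 replicate 2 value lay inside that range. Nr4a2 (Nurr1) was at 65.3, 44.2, 55 and 69.1 CPM in stage 0-like cells against 2.63 to 32.8 CPM in the other named classes, with no overlap. Nr4a3 (NOR-1) was low in the named classes, at 8.46, 11, 13.2 and 7.90 CPM in stage 0-like cells and at 0.833 to 15.9 CPM in the others, and its classes overlapped.

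Nfatc1, the NFAT factor that is itself induced by NFAT, was at 210 and 98.2 CPM in C57BL/6 stage 0-like cells and at 551 and 189 CPM in Hivep3-/- stage 0-like cells. Its range in the other named classes, 36.7 to 145 CPM, overlapped only with C57BL/6 replicate 2. Irf4 was the exception among the members. It was at 1.18 to 1.23 CPM in stage 0-like cells, on 2, 1, 3 and 3 UMIs, and was at 11.8 and 10.0 CPM in C57BL/6 and 10.2 and 7.55 CPM in Hivep3-/- cycling-like cells. In iNKT2-like cells, the interleukin-4 producing subset, Irf4 was at 7.94, 11, 7.28 and 9.71 CPM, higher than in cycling-like cells in both replicates numbered 2 and lower in both numbered 1, and in iNKT1-like cells it was at 0.940 to 1.88 CPM. Among the named classes and over the 4 libraries, 8 of the 9 members, all but Irf4, had their highest mean in stage 0-like cells, and this count was the same with coarser and finer clusters. All 9 members were left out of the genes used for clustering, but every gene of a cell shares its library and its cluster with the genes that were used.

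The unnamed clusters did not all keep this order. In the cluster led by Klra3, Egr3 was at 8.67 ± 1.72 CPM in C57BL/6 and 21.5 ± 2.18 CPM in Hivep3-/-, and Nr4a3 at 11.4 ± 4.404 and 9.54 ± 3.66 CPM (SD, n = 2), so that both had a higher mean over the 4 libraries there than in stage 0-like cells. The cluster led by Malt1 held 82, 5, 16 and 3 cells and 111574, 8410, 24908 and 6465 UMIs, and only its C57BL/6 replicate 1 value rests on more than 15 UMIs for any member. There Egr1 was at 287 CPM, Nr4a1 at 170 CPM, Nr4a2 at 233 CPM, Nfatc1 at 520 CPM and Nr4a3 at 80.7 CPM (9 UMIs), each above the stage 0-like value of the same library. The cells of this cluster had 0.262 times the median UMIs of their libraries and were left unnamed for that reason.

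Among the named classes, stage 0-like cells also held more members per cell. Cells were thinned to 2000 UMIs to set libraries at 1 depth, which used 267, 112, 363 and 371 stage 0-like cells and left out 93, 11, 14 and 42 with fewer UMIs. The mean number of the 9 members detected per cell was then 1.57 and 1.53 in C57BL/6 and 2.67 and 1.74 in Hivep3-/-, against 0.293 to 0.892 in the other named classes. At least 3 members were found in 23.6% and 21.4% of C57BL/6 cells and in 51.0% and 29.1% of Hivep3-/- cells. Hivep3-/- replicate 1 thus stood apart from the other 3 libraries, and the latter lay close together.

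Many pairs of members tended to be detected in the same stage 0-like cells. Egr1 and Egr2 were found together in 233 of 1113 thinned cells, against 174 if they were independent within each library (ratio 1.34, lowest library 1.28, highest 1.45). The ratio was 1.44 for Egr1 with Nr4a1, 1.46 for Nab2 with Nr4a1 and 1.82 for Nr4a1 with Nr4a2, and in each of these pairs it was above 1 in every library. Not all pairs did so. For Egr2 with Nr4a1 it was 1.31, from 0.747 to 1.65 over libraries. Pooled ratios were below 1 for Egr2 with Nr4a3 (0.876) and Nab2 with Nr4a3 (0.822), on 7 shared cells each. Most pairs with Zbtb16 went the other way. Nr4a1 and Zbtb16 were found together in 5 cells against 25.8 if independent (ratio 0.194), and the ratio was 0.315 for Nr4a2, 0.609 for Nfatc1, 0.679 for Egr2 and 0.740 for Egr1. It was below 1 in every library for Nr4a1, Nr4a2, Nfatc1 and Egr1, but ranged from 0.431 to 1.05 over libraries for Egr2 and from 0.550 to 1.26 for Nab2, whose pooled ratio was 0.849. Cells of a library share their source, so these ratios describe the cells and were not tested.

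To ask whether loss of Hivep3 changed the members, stage 0-like UMIs were summed per library and tested by quasi-likelihood in edgeR, p-values being adjusted over all genes after Benjamini and Hochberg and called at an adjusted p under 0.05. No member passed in stage 0-like cells, where 8 members could be tested, Irf4 being too low, and 0.403% of all 8933 genes were called; 3 members had an unadjusted p under 0.05, as did 788 of all genes, and DESeq2 also called 0 members. Zbtb16 passed. It was at 215 and 193 CPM in C57BL/6 and at 73.0 and 75.4 CPM in Hivep3-/-, and its log2 level fell by 1.58 (SE 0.16, adjusted p = 0.00192 in edgeR). The Zbtb16 levels of the genotypes did not overlap, and the spread within each was small. Lower Zbtb16 in Hivep3-/- stage 0 cells had already been reported by the study from these libraries. This call is therefore not independent of that report.

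Egr3 came nearest to the threshold. The fitted log2 difference came to 2.44 (SE 0.430), with an adjusted p of 0.0517 in edgeR, from 22.1 ± 3.35 CPM in Hivep3-/- against 3.97 ± 1.33 CPM in C57BL/6 (SD, n = 2), and the genotypes did not overlap. The C57BL/6 mean rests on 9 UMIs in all. The difference passed without C57BL/6 replicate 2 (2.74, adjusted p = 0.000736), Hivep3-/- replicate 1 (2.32, adjusted p = 0.0103) or Hivep3-/- replicate 2 (2.53, adjusted p = 0.00412), and without C57BL/6 replicate 1 it was 2.01 and did not (adjusted p = 0.0944). Among the settings tried, DESeq2 gave an adjusted p of 0.118 and cells of the cluster led by Nrgn, described below, gave 0.0110.

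The other stage 0-like differences rested on 1 library. Nr4a1 had a log2 difference of 1.33 (SE 0.490, adjusted p = 0.446), Nfatc1 of 1.08 (SE 0.429, adjusted p = 0.496), Egr2 of 0.68, Egr1 of 0.63 and Nab2 of 0.43, all by edgeR. For each of these 5 genes Hivep3-/- replicate 1 was the highest library by far, and Hivep3-/- replicate 2 lay near or among the C57BL/6 libraries. Left without that library, the differences were 0.24 for Nr4a1, 0.18 for Nfatc1, -0.46 for Egr2, -0.14 for Egr1 and -0.13 for Nab2, with adjusted p from 0.635 to 0.999. Left instead without Hivep3-/- replicate 2, 6 members were called, the 5 above and Egr3, with log2 differences of 0.82 to 2.53, and 3.08% of all genes were called. Left without C57BL/6 replicate 1, Egr1, Nr4a1 and Nfatc1 were called at 0.86, 2.11 and 1.75 (1.5% of all genes called), and left without C57BL/6 replicate 2, Nr4a1 was called at 0.91 beside Egr3 (1.63%), against 1.23% without Hivep3-/- replicate 1. Nr4a2 and Nr4a3 had log2 differences of 0.02 and 0.03 (adjusted p = 0.989 and 0.991), and that of Nr4a3 was -0.01 with DESeq2.

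**Figure D2:**
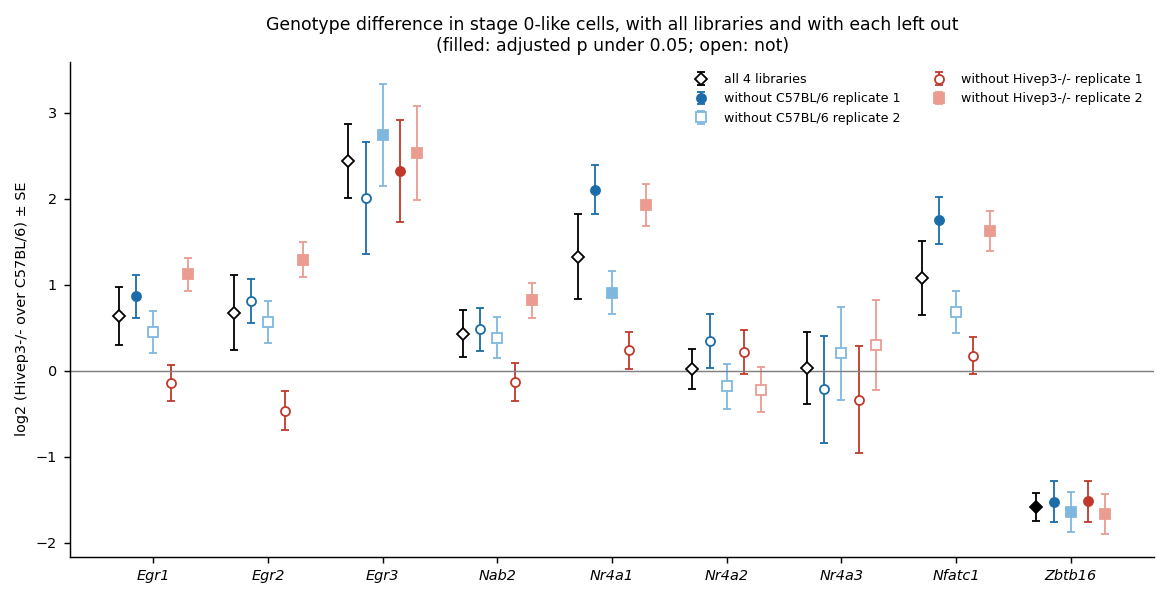
Log2 difference of Hivep3-/- minus C57BL/6 in stage 0-like cells with its standard error (bars), with all 4 libraries (diamonds) and with each library left out in turn (coloured points), for the 8 members tested and Zbtb16. Zbtb16 stays between -1.67 and -1.52 and Egr3 between 2.01 and 2.74, whereas Egr1, Egr2 and Nab2 lie below 0 without Hivep3-/- replicate 1; filled symbols have an adjusted p under 0.05.

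Shares of cells with a UMI were compared at 1 depth, where Hivep3-/- replicate 1 was again the highest library for Nr4a1, Egr1 and Egr2 but the order of the other 3 was not that of the CPM. At 2000 UMIs, Nr4a1 was detected in 10.9% and 14.3% of C57BL/6 stage 0-like cells and in 38.3% and 23.5% of Hivep3-/- cells, with 95% Clopper-Pearson intervals of 7.40 to 15.2, 8.39 to 22.2, 33.3 to 43.5 and 19.2 to 28.1. Egr1 was in 35.6% and 33.9% against 56.7% and 38.5%, and Egr2 in 27.7% and 30.4% against 49.9% and 23.2%. Only Hivep3-/- replicate 1 was far from the others for Egr1 and Egr2, and the genotypes overlapped for Egr2. Egr3 was found in 33 of 1113 thinned cells. Its mean share was 1.45 ± 0.468% in C57BL/6 and 3.80 ± 1.48% in Hivep3-/- (SD, n = 2), without overlap, and Hivep3-/- replicate 2 was highest. This depth kept 90 of 182 cells of the cluster led by Itm2a, described below, in C57BL/6 replicate 1 and 148 of 161 in Hivep3-/- replicate 1. At 1000 UMIs, which left out 0 stage 0-like cells, the genotypes overlapped for Nr4a1, Egr1 and Nab2 too. Mean shares in C57BL/6 and Hivep3-/- were then 11.9 ± 6.41% and 21.5 ± 9.80% for Nr4a1 and 23.5 ± 0.992% and 32.4 ± 15.0% for Egr1 (SD, n = 2). As a possible measure of free RNA, Egr1 was found in 13 of 24 B cell-like cells (54.2%, 32.8 to 74.4) and Nr4a1 in 9 (37.5%, 18.8 to 59.4), not thinned and with a median of 2590 UMIs, although B cells can express both genes themselves. The Egr1 and Nr4a1 shares of all libraries but Hivep3-/- replicate 1 lay below those values, and that library lay within their intervals, so the shares of these 2 genes are not read as expression on their own, nor are their pairs and the number of members per cell above. Egr2 was found in 2 of the 24 (8.33%, 1.026 to 27.0), below its share in each stage 0-like library. The B cell-like shares of Egr1 and Nr4a1 are no plain level of free RNA, however. Unthinned iNKT1-like cells of these libraries, with medians of 3458 to 6492 UMIs, had lower mean shares. These were 14.7% in C57BL/6 and 15.3% in Hivep3-/- for Egr1, and 10.3% and 10.2% for Nr4a1. The part of free RNA in any of these shares was not tested. Without thinning, the shares were 22.5%, 18.7%, 52.5% and 32.9% for Nr4a1 and 41.7%, 49.6%, 74.3% and 41.4% for Egr2. The mean share was higher in Hivep3-/- for 6 of the 9 members when thinned and for 9 of 9 when not; the median depth over all cells was 4596 and 5268 UMIs in C57BL/6 and 6833 and 6491 UMIs in Hivep3-/-. An exact two-sided permutation test of 2 against 2 libraries cannot go below 0.33, so no share could pass. Intervals cover counting error only.

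Within stage 0-like cells, most members and Zbtb16 were highest in different clusters, although Egr1, Egr2 and Nab2 were also found in cells with Zbtb16. At a finer resolution the class split into a cluster led by Itm2a (182, 46, 161 and 189 cells in the 4 libraries) and one led by Nrgn (182, 77, 216 and 227 cells). Cd24a, which encodes the surface marker of stage 0, was at 318 ± 60.02 and 329 ± 52.4 CPM in the first (C57BL/6 and Hivep3-/-, SD, n = 2) and at 12.1 ± 5.19 and 48.4 ± 14.4 CPM in the second. Zbtb16 was low in the first, at 11.8 ± 4.80 and 1.78 ± 0.038 CPM on 6, 1, 1 and 1 UMIs, and reached 251 ± 37.4 and 96.7 ± 0.643 CPM in the second.

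The cluster led by Itm2a was the shallower, its cells having median depths of 1987, 2376, 3519 and 2924 UMIs against 6213, 8126, 8239 and 8195 in the cluster led by Nrgn, and Cd8b1, a gene of double positive thymocytes, was among its 10 leading genes, as was Nr4a1. The part of depth and of such cells in the differences between the clusters was not tested. Nr4a1, the reporter of TCR signalling, was higher in the cluster led by Itm2a. It was at 501 and 252 CPM in C57BL/6 and at 1465 and 480 CPM in Hivep3-/- in the cluster led by Itm2a, and at 38.5, 31.6, 180 and 43.7 CPM in the cluster led by Nrgn. Egr1 was at 496, 336, 1149 and 431 CPM against 205, 183, 438 and 182 CPM, Nfatc1 at 483, 277, 1027 and 356 CPM against 120, 67.6, 408 and 142 CPM, and Nr4a2 at 134, 101, 91.3 and 120 CPM against 43.1, 34.5, 42.4 and 55.6 CPM. In each library all 4 of these genes were higher in the cluster led by Itm2a. So was Egr2, at 238, 201, 648 and 163 CPM against 144, 129, 368 and 108 CPM. Nab2 was also higher there in every library, as was Nr4a3, though on only 9, 7, 9 and 8 UMIs in that cluster. The high level of Hivep3-/- replicate 1 was seen in both clusters for Egr1, Egr2, Nr4a1 and Nfatc1. Clusters are drawn from the same cells as the levels, and the difference between them was not tested.

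**Figure D3:**
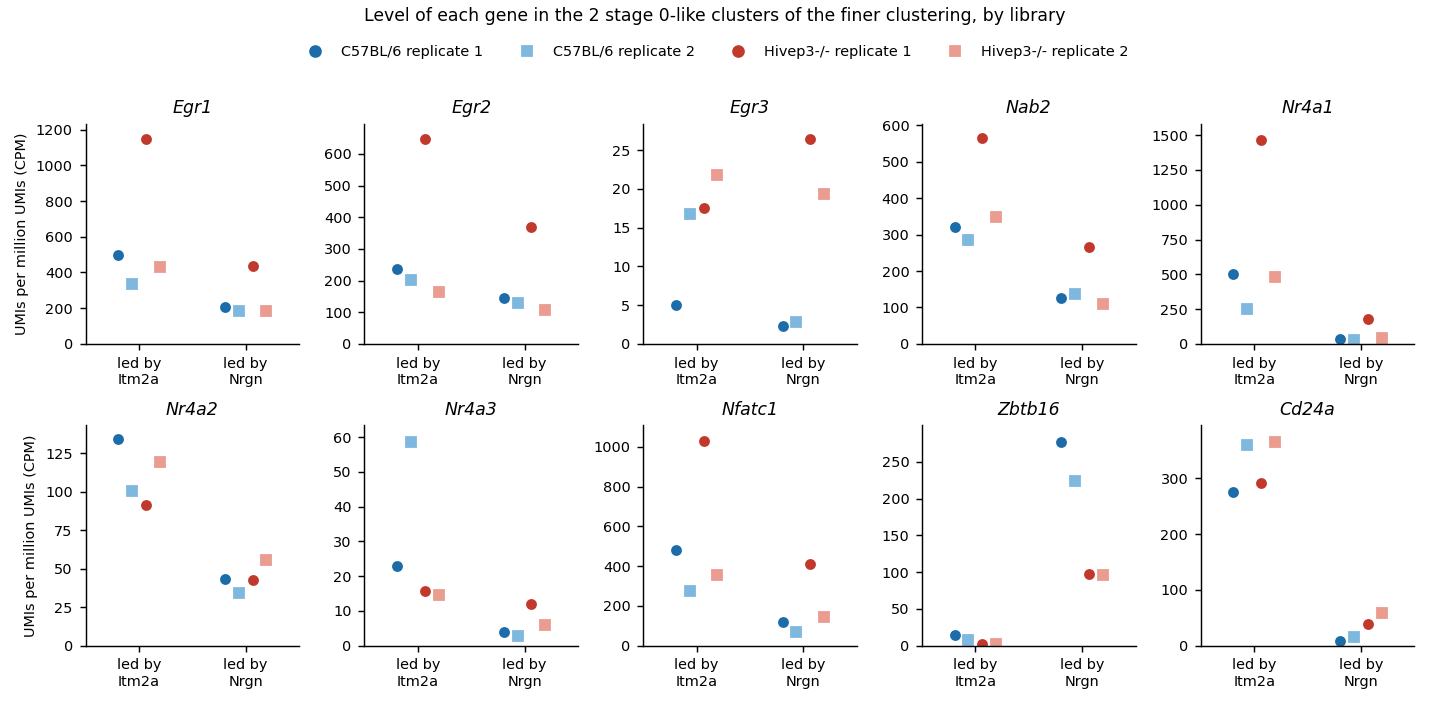
Levels (CPM, linear axes from 0 that differ between genes) of 8 members (all but Irf4), Zbtb16 and Cd24a in the finer stage 0-like clusters led by Itm2a and by Nrgn, with 1 point per library. Cd24a, Nr4a1, Nr4a2, Nr4a3, Egr1, Egr2, Nab2 and Nfatc1 are higher in the cluster led by Itm2a and Zbtb16 in the cluster led by Nrgn, in every library.

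Egr3 was an exception here as well: in the cluster led by Nrgn it was at 2.31 and 2.88 CPM in C57BL/6 (3 and 2 UMIs) and at 26.4 and 19.4 CPM in Hivep3-/- (51 and 39 UMIs). Tested in that cluster alone, its log2 difference was 3.03 (adjusted p = 0.0110 by edgeR), and Zbtb16 fell by 1.5. In the cluster led by Itm2a the log2 difference was 1.16 for Nr4a1, 0.76 for Egr1 and 0.67 for Nfatc1, each with an adjusted p of 0.999, and Egr3 and Zbtb16 were too low to be tested there. Both cluster-wise tests were chosen after the data were seen.

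Co-detection was then tested over libraries by splitting stage 0-like cells, thinned to 2000 UMIs, into those with and those without a Zbtb16 UMI. Zbtb16 was detected in 26.2% and 19.6% of C57BL/6 cells (95% Clopper-Pearson intervals 21.0 to 31.9 and 12.7 to 28.2) and in 7.44% and 5.39% of Hivep3-/- cells (4.96 to 10.6 and 3.32 to 8.20), and without thinning in 32.2%, 35.0%, 14.6% and 15.7%. Zbtb16 was found in 3 of the 24 B cell-like cells (12.5%, 2.66 to 32.4), whose median was 2590 UMIs against 3393 to 5605 in stage 0-like cells. The thinned Hivep3-/- shares lay below that value and the unthinned ones above it. Both lay within its interval, as did the thinned C57BL/6 shares, so none of these is read as expression on its own. The part of free RNA in them was not tested. In the cluster led by Itm2a the share was 3.33%, 0%, 0.676% and 0%, where 0 of 35 and 0 of 147 cells allow up to 8.57% and 2.04%. In the cluster led by Nrgn it was 37.6%, 28.6%, 12.1% and 9.25%.

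Of the 6 members that could be tested, 5 were lower in cells with Zbtb16, in a fit with library as a block that called 6.28% of 3185 genes. The fall was largest for Nr4a1, which was at 155, 156, 856 and 244 CPM in cells without Zbtb16 and at 14.3, 0, 74.1 and 25.0 CPM in cells with it, on 2, 0, 4 and 1 UMIs, where 0 UMIs allow up to 68.2 CPM. Its log2 level fell by 3.54 (SE 0.352, adjusted p = 1.21e-10 in edgeR). Nr4a2 fell by 2.33 (SE 0.536, adjusted p = 0.00278), on 5 UMIs in all in cells with Zbtb16. Nfatc1 was at 376, 194, 673 and 254 CPM without Zbtb16 and at 136, 22.7, 241 and 150 CPM with it, and fell by 1.42 (SE 0.223, adjusted p = 7.6e-06). Each of these was lower in cells with Zbtb16 in all 4 libraries.

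Egr1 fell by 1.029 (SE 0.199, adjusted p = 0.000266 by edgeR), from 325, 306, 804 and 355 CPM without Zbtb16 to 214, 182, 278 and 100 CPM with it. Egr2, the member upstream of PLZF in the textbook order, fell by 0.84 (SE 0.234, adjusted p = 0.0176), and its call was lost without C57BL/6 replicate 1 (adjusted p = 0.108) or Hivep3-/- replicate 1 (0.155). Nab2 had a log2 difference of -0.49 (SE 0.218, adjusted p = 0.220). Maturity moved with the split: Cd24a had 0 UMIs in cells with Zbtb16 in all libraries (which allow up to 21.4, 68.2, 55.6 and 75.0 CPM) and was at 78.7, 94.4, 168 and 198 CPM in cells without. Within the cluster led by Nrgn alone, 1 member stayed called, Nr4a1 at -2.60 (adjusted p = 0.00277), while Nfatc1 was at -0.81 (0.125), Egr1 at -0.57 (0.265), Egr2 at -0.64 (0.297) and Nab2 at 0.12. The effect of Zbtb16 detection was not shown to differ between genotypes: edgeR called 0% of the 3185 genes in that test, with 151 genes and 1 member, Egr1, at an unadjusted p under 0.05, and DESeq2 also called 0.

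**Figure D4:**
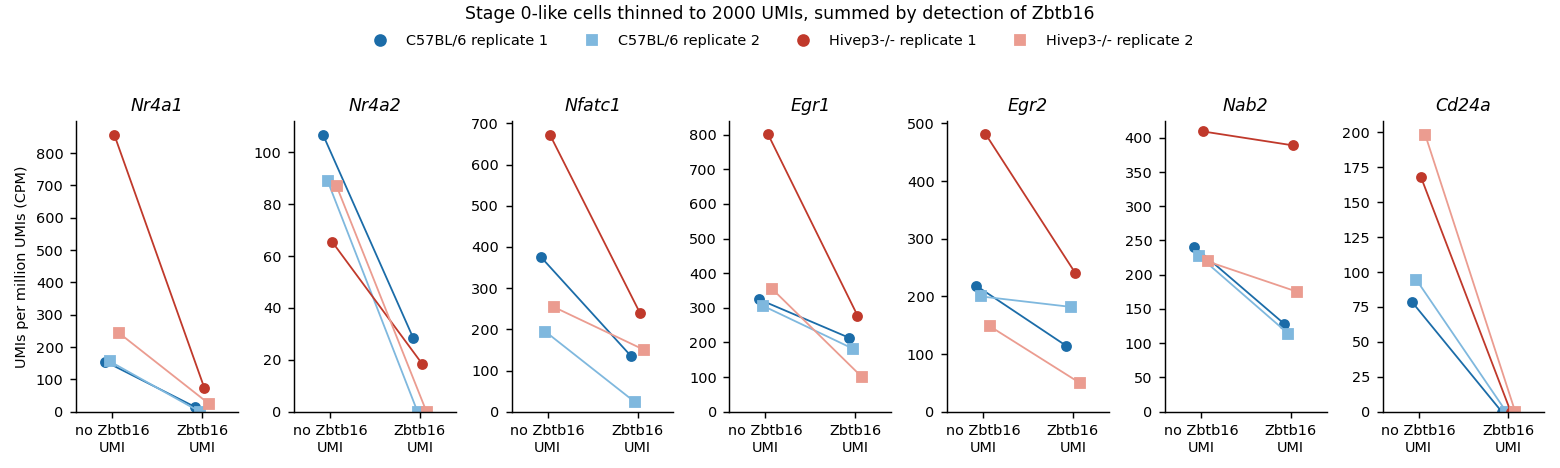
Levels (CPM of thinned cells, linear axes from 0 that differ between genes) of the 6 members tested and Cd24a in stage 0-like cells without and with a Zbtb16 UMI, with 1 line per library. The lines of Nr4a1, Nr4a2, Nfatc1 and Egr1 fall in all 4 libraries, and the line of Nab2 in Hivep3-/- replicate 1 is nearly level.

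In the other classes the genotype contrast called 1 member. Nr4a2 was at 2.63 and 3.33 CPM in C57BL/6 cycling-like cells (45 and 24 UMIs) and at 10.2 and 18.3 CPM in those of Hivep3-/- (33 and 104 UMIs), a log2 difference of 2.17 (SE 0.363, adjusted p = 0.0260 by edgeR), in a class where 3.23% of genes were called. The genotypes did not overlap. The cells of the class differed between genotypes too: the 16 markers of iNKT1 cells, in which Nr4a2 was at 10.97 to 32.8 CPM, summed to 584 and 675 CPM in C57BL/6 and to 3448 and 1824 CPM in Hivep3-/- cycling-like cells, all 16 being detected in each library, and their part in the difference was not tested. The call was lost without C57BL/6 replicate 1 (adjusted p = 0.194), C57BL/6 replicate 2 (0.0745) or Hivep3-/- replicate 2 (0.123), with log2 differences of 1.59 to 2.51. In iNKT2-like cells Nr4a2 was at 8.14, 5.38, 14.3 and 23.7 CPM, a log2 difference of 1.35 that did not pass (SE 0.332, adjusted p = 0.222).

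Egr2 had log2 differences of 1.39 in cycling-like, 1.58 in iNKT2-like and 1.77 in iNKT1-like cells, none of which passed (adjusted p = 0.237, 0.555 and 0.450 by edgeR). In iNKT1-like cells it was at 4.89 and 3.03 CPM in C57BL/6 and at 23.3 and 5.43 CPM in Hivep3-/-. Without Hivep3-/- replicate 1 the difference was 0.76 in cycling-like, -0.39 in iNKT2-like and 0.44 in iNKT1-like cells. Without Hivep3-/- replicate 2 it was 2.37 in iNKT2-like and 2.41 in iNKT1-like cells. In iNKT17-like cells the log2 difference of Nr4a1 was -1.63 without C57BL/6 replicate 2 and -1.40 without Hivep3-/- replicate 2. No member was called in iNKT2-like, iNKT17-like or iNKT1-like cells, in which edgeR called 0.391%, 0.105% and 0.666% of genes. An unadjusted p under 0.05 was found for 3, 1 and 1 members in these classes. The same held for 829 of 9466, 436 of 7612 and 888 of 10664 of all genes tested. DESeq2 called 0 members in each. Over all cells 0 members were called, with 0.765% of genes called. There 4 members had an unadjusted p under 0.05, as did 1472 of all 12291 genes tested. DESeq2 called 1 member over all cells, Nr4a2 (log2 difference 1.14, adjusted p = 0.0307).

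**Figure D5:**
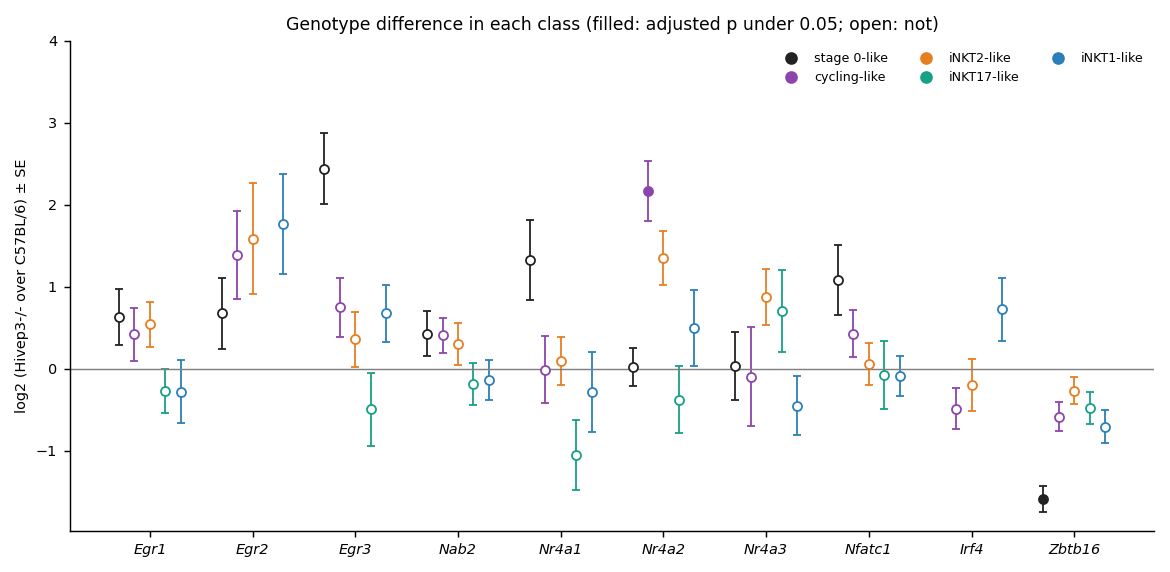
Log2 difference of Hivep3-/- minus C57BL/6 with its standard error for each member and Zbtb16 in the 5 named classes; filled points passed the threshold. Zbtb16 passed in stage 0-like cells and Nr4a2 in cycling-like cells, and the differences of Egr1, Nr4a1 and Nfatc1 are higher in stage 0-like than in iNKT1-like cells.

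The genotype difference itself depended on the class for 4 members. In a fit of stage 0-like and iNKT1-like sums with library as a block, which called 3.87% of 10870 genes, the difference was higher in stage 0-like cells by 1.59 for Nr4a1 (SE 0.362, adjusted p = 0.00578), by 1.10 for Nfatc1 (SE 0.180, adjusted p = 6.73e-05) and by 0.83 for Egr1 (SE 0.202, adjusted p = 0.0109). For Egr2 it was lower, at -1.04 (SE 0.213, adjusted p = 0.00172), with log2 differences of 1.77 in iNKT1-like and 0.68 in stage 0-like cells. Zbtb16 gave -0.87 (SE 0.163, adjusted p = 0.00052), and Egr3 and Nab2 did not pass, at 1.73 (0.0510) and 0.50 (0.0656). Without Hivep3-/- replicate 1, the value was 0.27 for Nr4a1 (adjusted p = 0.730), 0.34 for Egr1 (0.389), -0.88 for Egr2 (0.0864) and 0.61 for Nfatc1 (0.0123), and Egr3 passed at 2.12 (0.0384). Without C57BL/6 replicate 2 the calls of Nr4a1 (1.70, adjusted p = 0.157), Nfatc1 (0.91, 0.0597) and Egr2 (-0.87, 0.0897) were lost, and without C57BL/6 replicate 1 that of Egr1 (0.21, 0.728). Nab2 passed without C57BL/6 replicate 1 (0.82, 0.00159) or Hivep3-/- replicate 2 (0.64, 0.00332). DESeq2 called 1 member, Nfatc1.

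Genes of the same signal were taken from lists that held none of the members and were chosen with earlier results of these data known. Of 30 other TCR-induced genes, 26 were tested in stage 0-like cells; 0 were called by edgeR, 18 had a positive log2 difference, and the median was 0.32 against 0.02 for all genes. The smallest p-values were those of Spry1, an inhibitor of ERK signalling (log2 difference 1.72, adjusted p = 0.108), Tagap (1.45, 0.179), the Egr family member Egr4 (1.47, 0.389) and the NF-κB subunit Nfkb1 (0.80, 0.389). Of 22 genes of the calcineurin-NFAT and ERK-SRF pathways, all tested, 0 were called and the median was 0.14, with the serum response factor partner Elk3 at 0.63 (adjusted p = 0.180) and the calcineurin subunit Ppp3cc at 0.74 (0.491). Of 13 genes of PLZF and early iNKT cells, 1 was called, Id2, an inhibitor of E proteins, which fell by 2.86 (SE 0.209, adjusted p = 0.000451), and the median was -0.10. The study had already reported lower Id2 and higher Hdac7, another gene of this list, in Hivep3-/- stage 0 cells of these libraries. The call of Id2 is therefore not independent of that report. The median of the 8 tested members was 0.66. It leans on Hivep3-/- replicate 1, without which Egr1, Egr2 and Nab2 lay below 0 and Nr4a1 and Nfatc1 at 0.24 and 0.18. The medians of the lists were not taken without that library.

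Immediate-early genes can be induced while tissue is taken apart, so a list of them was kept beside the members. Of 19 such genes, 15 were tested in stage 0-like cells, 0 were called and the median was 0.18, with Ier2 at 0.72 (adjusted p = 0.0999) and Dusp1 at -1.07 (0.489). Their summed level was 2545 and 1392 CPM in C57BL/6 and 2661 and 2178 CPM in Hivep3-/- stage 0-like cells. Their order across classes was unlike that of the members, with 14941, 6502, 5306 and 8328 CPM in iNKT1-like cells. In the test between classes, 7 immediate-early genes had a higher genotype difference in stage 0-like cells and 0 a lower one; of the TCR-induced list, 7 were higher and 1 lower. The part of these genes in the members' differences was not tested.

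Across the 20 sums of 5 classes and 4 libraries, the genes whose log2 levels were most like each member, among the 5311 genes that averaged 20 CPM or more, were as follows. Egr1 was closest to Lcp2, which encodes the TCR adapter SLP-76 (Pearson r 0.932), Tox4 and Chd1. Egr2 was closest to Ncoa5 (0.961), Akt2 and Ddx54, and Egr3 to Hivep2 (0.802), a relative of Hivep3, Shkbp1 and Fyn. Nr4a1 was closest to Egr1 (0.904), the pair of members most alike, followed by Tox4 and Jarid2. Nr4a2 was closest to Phf6 (0.910), Nr4a3 to Klhl24 (0.878), Nab2 to Plekhg2 (0.934), Nfatc1 to Lrp10 (0.940) and Irf4 to Tesc (0.864). Zbtb16 was closest to Tnfsf11 (0.899) and Il17rb (0.873), a receptor of iNKT2 cells. The sums share libraries and depth, and stage 0-like cells stand apart from the rest, so the r values are a description without a test.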

How the data were processed

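Single-cell RNA-seq (5' chemistry) was done on thymic iNKT cells of 2 C57BL/6 and 2 Hivep3-/- mice, 1 library each; groups and replicate numbers came from the sample labels, and replicates are mice. The deposited values were raw UMI counts per gene and barcode with no normalization, for which the submitters' processing notes name Cell Ranger 3.1.0, mm10 and Seurat 3.1.4; deposited matrices held 4243 to 8374 barcodes already called as cells. Members and gene lists were chosen with earlier results of these data known, and named genes are all members, Zbtb16, the 3 genes most like each, and up to 4 genes of each list by smallest p.

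Cells with at least 500 and under 4100 genes, at least 1000 UMIs and under 6% mitochondrial UMIs were kept, as in the methods of the study. Clusters were made in R 4.3.3 with Seurat 5.3.0 (2000 variable genes without the members, T cell receptor segments, sex-linked genes and genes the study compares between genotypes; 30 principal components by irlba 2.3.5.1; mutual nearest neighbour correction over 20 neighbours with RANN 2.6.2; Louvain resolution 0.8) and named from markers, with the naming rule set after the clusters were seen. Names were rebuilt here and can differ from the study's. Scrublet in scanpy 1.11.5 (Python 3.11.15) marked 0, 4, 1 and 5 cells and had not worked, so no doublets were removed except in an alternative. Counts were summed per class and library, scaled to CPM, and tested with edgeR 4.0.16 (TMM, filterByExpr, quasi-likelihood test, two-sided, Benjamini-Hochberg over all genes); DESeq2 1.42.0 was an alternative. TMM scaling shifted the Hivep3-/- minus C57BL/6 difference by 0.13 (log2) in stage 0-like and 0.16 in cycling-like cells and by at most 0.09 elsewhere. The edgeR step was tested on simulated counts with known changes. The smallest sum of a named class held 814753 UMIs.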

Additional observations from a re-analysis of the deposited data

Results flagged for a closer look

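Results of 4 members and of the reference Zbtb16 were singled out because their genotype effect differed between stage 0-like and iNKT1-like cells in the test of that difference (edgeR with library as a block, 4 libraries). The Hivep3-/- minus C57BL/6 difference was higher in stage 0-like cells by 1.59 on the log2 scale for Nr4a1, by 1.10 for Nfatc1 and by 0.83 for Egr1, and it was lower there by -1.04 for Egr2 and by -0.87 for Zbtb16. Without Hivep3-/- replicate 1, Nfatc1 (0.61, adjusted p = 0.0123) and Zbtb16 (-0.78, 0.00527) still passed, whereas Nr4a1 (0.27), Egr1 (0.34) and Egr2 (-0.88) did not. Without C57BL/6 replicate 2, Nr4a1 (adjusted p = 0.157), Nfatc1 (0.0597) and Egr2 (0.0897) did not pass, and without C57BL/6 replicate 1 Egr1 (0.728) did not. With wider thresholds on cells, Egr2 and Nfatc1 passed, and Nr4a1 (adjusted p = 0.141), Egr1 (0.140) and Zbtb16 (0.356) did not. The summed level of immediate-early genes, which also differed between libraries in iNKT1-like cells (14941, 6502, 5306 and 8328 CPM in C57BL/6 replicates 1 and 2 and Hivep3-/- replicates 1 and 2), was not tested as a part of these differences.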

How the results depend on the processing

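The fall of Zbtb16 in stage 0-like cells and that of Nr4a1 in cells with Zbtb16 held in every setting in which they were tested. The count of members called in stage 0-like cells rose from 0 to 3 with no low-count filter and to 3 with the replicate number as a block (Egr3, Nr4a1 and Nfatc1), and was 1 (Egr3) at resolution 1.2, with members kept among the variable genes, with wider thresholds on cells, with the highest doublet scores removed and in the cluster led by Nrgn alone; without each library in turn it ranged from 1 to 6. With no low-count filter 2 members were called in cycling-like cells, 2 in iNKT2-like, 1 in iNKT17-like, 1 in iNKT1-like and 2 over all cells; with the block 2 in cycling-like and 1 over all cells; with DESeq2 1 over all cells. Leaving out libraries gave 0 to 1 in cycling-like, iNKT2-like, iNKT17-like and iNKT1-like cells. The 4 calls of the test between classes became 1 with DESeq2, 2 with wider thresholds and 1 to 5 without single libraries. The 5 calls of the Zbtb16 split became 3 with DESeq2, which gave no adjusted p for Nr4a2, 2 when thinned to 1000 UMIs and 1 in the cluster led by Nrgn alone. Counts over all genes moved too: 36 in stage 0-like cells became 211 with no filter and 181 with the block, 335 in cycling-like 1108 and 469, 37 in iNKT2-like 341 and 144, 8 in iNKT17-like 96 and 15, 71 in iNKT1-like 457 and 90 (166 with DESeq2), 94 over all cells 965 and 212 (413 with DESeq2), and 421 between classes and 200 in the split 132 and 72 with DESeq2. Same-numbered libraries deviated together at r of 0.12 to 0.16 in classes and -0.00196 over all cells; with 2 pairs the numbers were not taken to pair the mice.

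Uncalled members changed sign in some settings, and the cause was not tested. In stage 0-like cells, Nr4a2 was at -0.0022 with the block, -0.042 at resolution 0.4, -0.044 without correction between libraries, -0.11 with wider thresholds and -0.33 in the cluster led by Itm2a, and Nr4a3 at -0.0088 with DESeq2, -0.18 with wider thresholds and -1.19 in the cluster led by Itm2a. In cycling-like cells, Nr4a1 was at 0.0004 with DESeq2, 0.16 with the block, 0.25 and 0.24 at resolutions 0.4 and 1.2, 0.016 with members kept, 0.028 with wider thresholds and 0.077 with doublets removed, and Nr4a3 at 0.10 with the block and 0.10 with wider thresholds. Irf4 in iNKT2-like cells was at 0.028 and 0.096 at resolutions 0.4 and 1.2. Nab2 in the Zbtb16 split was at 0.12 in the cluster led by Nrgn, and in the genotype by Zbtb16 test Nab2 was at -0.74 when thinned to 1000 UMIs and Nr4a2 at 0.51 with members kept.

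Without single libraries, the ranges that crossed 0 were these. In stage 0-like cells: Egr1 -0.14 to 1.12, Egr2 -0.46 to 1.29, Nab2 -0.13 to 0.82, Nr4a2 -0.22 to 0.35 and Nr4a3 -0.33 to 0.30. In cycling-like cells: Nr4a1 -0.53 to 0.92 and Nr4a3 -0.56 to 1.06. In iNKT2-like cells: Egr2 -0.39 to 2.37, Egr3 -0.051 to 0.72, Nab2 -0.22 to 0.66, Nr4a1 -0.28 to 0.66, Nfatc1 -0.32 to 0.40 and Irf4 -0.49 to 0.034. In iNKT17-like cells: Egr1 -0.61 to 0.11, Nab2 -0.67 to 0.16, Nr4a1 -1.63 to 0.050, Nr4a2 -0.74 to 0.10 and Nfatc1 -0.99 to 0.64. In iNKT1-like cells: Egr1 -0.81 to 0.57, Nab2 -0.49 to 0.13, Nr4a1 -0.89 to 0.81, Nr4a2 -0.36 to 1.05, Nr4a3 -0.83 to 0.084 and Nfatc1 -0.41 to 0.24. Over all cells: Nab2 -0.24 to 0.36, Nr4a1 -0.27 to 1.11, Nr4a3 -0.16 to 0.45 and Nfatc1 -0.17 to 0.70. Between classes: Nr4a2 -0.77 to 0.21 and Nr4a3 -0.27 to 1.21. In the genotype by Zbtb16 test: Nr4a1 -0.15 to 5.02 and Nr4a2 -5.22 to 4.93. Where 1 library of a genotype was left, it was assumed to vary like the others. Depth limits Irf4 and Nr4a3 in stage 0-like cells and every split by Zbtb16.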
